A study of Mus musculus with 8 samples.

Results

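The interferon response and RNA-sensing genes are 35 genes listed by name. They comprise sensors of double-stranded RNA, their adaptor, transcription factors of the response and genes that interferon induces. Of the 19751 genes named on the array through their RefSeq accession, 33 were members with at least 1 probe. *Mx1* and *Mx2* had no named probe. Probes entered the test if all 4 arrays of either group showed them well above background, and 27 of the 33 members passed (32 of their 40 probes). *Irf7*, *Ifit1*, *Ifit2*, *Ifit3*, *Tlr3* and *Ifi44* had probes, none of which passed.

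Expression was measured in VV3 ESCs, a male mouse ESC line with a Venus reporter of *Vasa* (*Ddx4*), grown with serum and LIF on STO fibroblast feeder cells that had been inactivated with mitomycin C. The cells received a single siRNA against *L3mbtl2* (*L3mbtl2*-KD ESCs, 4 arrays) or the non-silencing AllStars siRNA (control ESCs, 4 arrays), each described as biological replicates. Both groups were thus transfected with double-stranded RNA and the same lipid reagent, and untransfected cells were not among the arrays. *L3mbtl2*-KD ESCs were purified by FACS as *Vasa*-positive cells, whereas the sorting of the control ESCs is not stated for these arrays. Unless the controls were sorted alike, knockdown and selection of *Vasa*-positive cells cannot be told apart in any difference between the groups. Slide 1 carried replicates 1 and 2 of both groups and slide 2 carried replicates 3 and 4. Control and *L3mbtl2*-KD arrays always took different positions on a slide, so position and group cannot be told apart.

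Cells detect viral RNA with helicases in the cytoplasm and a Toll-like receptor in endosomes. The helicases signal through an adaptor on mitochondria to switch on type I interferon, which acts through its receptor and the Janus kinases on a complex that contains STAT2 and IRF9. This complex binds the interferon-stimulated response element and induces antiviral genes, among them the sensors themselves. Pluripotent cells are known for a weak interferon response.

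Values are log2 intensities minus the 75th percentile of the array, so that 0 is the 75th percentile. The targeted gene and the reporter gene checked the labels. *L3mbtl2* was -0.11 ± 0.26 (SD, n = 4) in control ESCs and -1.5 ± 0.20 (SD, n = 4) in *L3mbtl2*-KD ESCs, which is 37.9% of the control level. *Ddx4* was 0.92 ± 0.08 (SD, n = 4) and 3.75 ± 0.11 (SD, n = 4). Neither gene had overlapping groups.

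Markers of the feeder cells differed strongly between the groups. Of 13 fibroblast genes tested, 7 were called lower in *L3mbtl2*-KD ESCs and 1, *Loxl1*, was called higher (a gene was called if limma gave any of its probes an adjusted p under 0.05 and a change of over 2-fold). These are 53.8% and 7.69% of the list, beside 3.21% and 2.49% of all genes. The summed level of the list, on a linear scale relative to the 75th percentile, was 59.9, 65.4, 64.4 and 61.0 in control replicates 1 to 4, and 31.0, 37.9, 35.4 and 30.7 in *L3mbtl2*-KD replicates 1 to 4. Its brightest probe was that of *Fn1*, and the sum mostly follows *Fn1* and *Vim*, at 54.4% and 57.7% of the control level. The sum thus does not show dimmer genes such as *Col1a1* (21.4%), *Acta2* (15.2%) and *Col1a2* (14.2%), nor *Loxl1* (202%). *Dcn* and *Col3a1* lay below the background limit on all *L3mbtl2*-KD arrays. Both are among the 7, but their probes entered the test through the control arrays alone. Their p-values thus rest on unmeasured *L3mbtl2*-KD readings. *Dcn* was at least 12.1-fold lower in *L3mbtl2*-KD ESCs (limma adjusted p = 0.000369), and *Col3a1* at least 7.81-fold (limma adjusted p = 0.0012). On the log2 scale these bounds are 3.6 and 2.97. They hold for the values without normexp, with which the log2 differences were smaller (-1.88 and -1.55). For these bounds, each *L3mbtl2*-KD array was given its dimmest signal that still counted as well above background, unless the probe itself read higher, and the mean of these was compared with the control mean. *Lum*, *Postn* and *Prrx1* were not well above background on any array. Fewer feeder cells and less RNA per cell cannot be told apart in these samples. The part of the feeder cells in the values of the interferon genes was not tested.

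Markers of the two-cell-like state were higher in *L3mbtl2*-KD ESCs, with 9 of 10 genes tested called (90.0%, beside 2.49% of all genes). Among the 9, *Tdpoz4* entered the test through the *L3mbtl2*-KD arrays alone (above background on 1 control array), and its groups overlapped. Their summed level was 124, 136, 88.1 and 91.0 in control replicates 1 to 4 and 191, 185, 122 and 130 in *L3mbtl2*-KD replicates 1 to 4, with *Sp110* as the brightest. The brightest *Sp110* probe did not pass the test, unlike both of its other probes (log2 differences 2.42 and 1.73). Of 8 ESC markers, 1 passed at an adjusted p under 0.05, *Klf4* (log2 difference -0.70, SE 0.18, limma adjusted p = 0.0274). This is 12.5% of the list, beside 11.7% of all genes that were lower. With same-numbered arrays paired as a block, 1 marker was higher, *Dppa5a* (0.17), and 2 were lower. These are 12.5% and 25.0%, beside 23.9% and 26.0% of all genes. The log2 difference was below 0 for 6 of the 8, among them *Nanog* (-1.32, limma adjusted p = 0.0962). The summed level was 250 to 279 in control ESCs and 241 to 287 in *L3mbtl2*-KD ESCs, with *Dppa5a* as the brightest. The sum thus does not show the markers with differences below 0. Of the blood and immune markers, *Ptprc* and *Lyz2* were not well above background on any array, and none of the 3 tested passed. That list summed to between 5.21 and 8.03 in control ESCs and between 5.17 and 6.06 in *L3mbtl2*-KD ESCs, with *Itgam* as its brightest gene.

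Among the interferon genes, *Isg15* was called higher in *L3mbtl2*-KD ESCs and no member was called lower by limma. The share called was 3.7% of the 27 members for higher values, against 2.49% of the 13653 genes tested (340 genes), and 0.0% for lower values, against 3.21% (438 genes). With normexp background correction, 194 genes were called higher and 159 lower, and *Isg15* was again the member called. At an unadjusted limma p under 0.05, 0 members were more than 2-fold lower, against 3.57% of all genes. At an adjusted p under 0.05 with any fold, *Isg15* and *Isg20* were higher, which is 7.41% of the members against 10.3% of all genes, and 0 members were lower, against 11.7%. At an unadjusted limma p, 3 members were higher (18.2% of all genes) and 4 were lower (20.5% of all genes). The one-way test of the methods passed 0 members in either direction after adjustment. Past 2-fold, that adjusted test called 289 of all genes higher and 327 lower. Groups did not overlap for 1 member with higher values, *Isg20*, against 12.6% of all genes, and for 0 members with lower values, against 13.8%.

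The log2 differences of the 27 members, *L3mbtl2*-KD minus control, ran from -0.62 to 1.15 with a median of 0.06, beside a median of -0.011 over all genes tested. With single arrays left out, the median of the members was between 0.001 (without *L3mbtl2*-KD replicate 3) and 0.166 (without *L3mbtl2*-KD replicate 2). They were above 0 for 16 members and below 0 for 11, and 20 members lay within 1.5-fold. Members that passed the filter in 1 group only entered this median with the others. Those were *Ifih1*, with all *L3mbtl2*-KD arrays but 2 control arrays above background, and *Rsad2*, with all control arrays but 2 *L3mbtl2*-KD arrays above background.

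**Figure D1:**
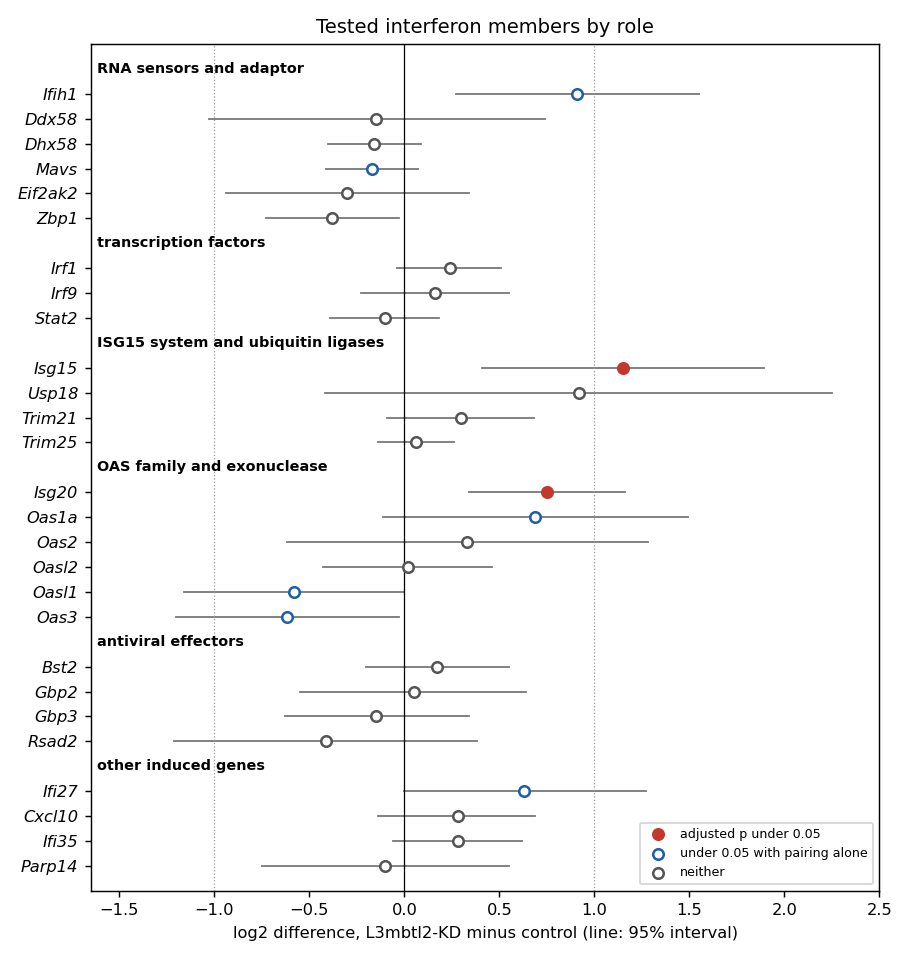
Log2 difference (*L3mbtl2*-KD minus control, x axis) of the 27 tested members by role (y axis), with 95% intervals from limma and dotted lines at 2-fold. Filled points mark *Isg15* (1.15) and *Isg20* (0.75), and blue rings mark members that passed only with same-numbered arrays paired.

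The RNA sensors and their adaptor showed no member called in either direction. *Ddx58* (RIG-I), the helicase that detects RNA with a triphosphate end, had a log2 difference of -0.15 (95% interval -1.03 to 0.74). Its other probe gave -0.72 (limma adjusted p = 0.0673), and -0.24 with normexp. Without control replicate 3 that probe gave -0.91 and passed (limma adjusted p = 0.0265). The paralogue *Dhx58*, which lacks the signalling domain, differed by -0.16. *Eif2ak2*, the kinase that halts translation on binding double-stranded RNA, differed by -0.30 (-0.05 without control replicate 1, -0.46 and -0.12 without *L3mbtl2*-KD replicates 1 and 4), and *Zbp1*, a receptor of nucleic acids in the Z form, by -0.38. *Mavs*, the mitochondrial adaptor, differed by -0.17 with an interval of -0.41 to 0.07. With replicates paired as a block *Mavs* passed (adjusted p = 0.0468, the lowest of its alternatives, which reached 0.671). The endosomal receptor *Tlr3* was not well above background on any array.

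*Ifih1*, the helicase that detects long double-stranded RNA, was singled out after its values were seen. It measured -4.61, -5.60, -5.58 and -5.55 in control replicates 1 to 4 and -4.39, -4.74, -3.81 and -4.75 in *L3mbtl2*-KD replicates 1 to 4. Control replicate 1 stood apart from the other controls and above *L3mbtl2*-KD replicates 2 and 4, so the groups overlapped. The log2 difference was 0.91 (SE 0.28, limma adjusted p = 0.0569; exact permutation test, two-sided, p = 0.0857). Its probe entered the test through the *L3mbtl2*-KD arrays, and 2 control readings lay in the background, so these differences rest in part on unmeasured controls. The adjusted p of *Ifih1* was under 0.05 in 4 of 18 alternatives, among them the fit with arrays paired by replicate number as a block (0.0409), and ranged from 0.0144 to 0.585. With normexp the difference was 0.41. Within slide 1 it was 0.54 and within slide 2 it was 1.28.

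Of the transcription factors, *Irf1*, *Irf9* and *Stat2* differed by 0.24 (95% interval -0.04 to 0.51), 0.16 (-0.23 to 0.55) and -0.10 (-0.39 to 0.18). *Irf9* and *Stat2* encode subunits of the complex that binds the response element, and *Irf1* is itself induced by interferon. The groups overlapped for all 3. *Irf7*, the factor that amplifies interferon production, was above background on 1 control array and 2 *L3mbtl2*-KD arrays and was not tested.

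*Isg15* encodes a ubiquitin-like protein that is attached to other proteins during the response. Its probe measured -0.08, -0.69, -0.85 and -0.69 in control replicates 1 to 4 and 0.71, -0.19, 1.42 and 0.35 in *L3mbtl2*-KD replicates 1 to 4. Replicate 3 was the highest *L3mbtl2*-KD array and replicate 1 the highest control, and the groups overlapped, since *L3mbtl2*-KD replicate 2 lay below control replicate 1. *Isg15* was 2.22-fold higher in *L3mbtl2*-KD ESCs (log2 difference 1.15, SE 0.32, limma adjusted p = 0.0409), whereas the exact permutation test gave a two-sided p of 0.0571. In all 4 same-numbered pairs the *L3mbtl2*-KD array was the higher, by 0.79, 0.50, 2.27 and 1.04 on the log2 scale. The difference was 0.64 within slide 1 and 1.66 within slide 2, and with the slide as a block the adjusted p was 0.047.

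The other *Isg15* probe, dimmer and above background on 2 control arrays and all *L3mbtl2*-KD arrays, measured -4.37, -5.18, -5.24 and -5.06 in control ESCs and -3.22, -4.70, -2.83 and -3.74 in *L3mbtl2*-KD ESCs. The order of the arrays was nearly that of the brighter probe, and the groups overlapped here too. Its log2 difference was 1.34 (SE 0.38, limma adjusted p = 0.0433), and with normexp 0.62. Since this probe entered the test through the *L3mbtl2*-KD arrays alone, its p is not counted as further support for *Isg15*. The call of *Isg15* rested on many arrays at once. With the brighter probe, the adjusted p rose to 0.0889, 0.106 and 0.0907 without control replicates 2, 3 and 4, and to 0.0865, 0.0655 and 0.0704 without *L3mbtl2*-KD replicates 1, 3 and 4, while the log2 difference was 0.87 to 1.41 over all arrays left out. It was also lost without the filter on dim probes (0.0921). Over 19 alternatives the adjusted p of *Isg15* ranged from 0.0168 to 0.527 and was under 0.05 in 9.

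The bases before the start of *Isg15* are shown because it was the member called. The RefSeq promoter table (GRCm38.p6) places them at chr4:156200819-156200968, minus strand, upstream of the gene. Capitals mark matches to GAAA followed, after any 2 bases, by GAAA again, the core of the interferon-stimulated response element, of which 3 overlap one another here.
*Isg15*: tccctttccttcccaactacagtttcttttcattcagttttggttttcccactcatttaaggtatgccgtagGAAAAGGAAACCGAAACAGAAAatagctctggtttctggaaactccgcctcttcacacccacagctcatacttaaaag

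*Usp18*, which removes ISG15 from proteins and damps signalling at the interferon receptor, varied most among the members and was singled out for that reason after its values were seen. It measured -1.02, -2.75, -2.66 and -3.09 in control replicates 1 to 4 and -0.83, -2.48, -0.35 and -2.19 in *L3mbtl2*-KD replicates 1 to 4. Control replicate 1 and *L3mbtl2*-KD replicates 1 and 3 were high, the other 5 arrays were low, and the groups overlapped. The log2 difference was 0.92 (SE 0.59, limma adjusted p = 0.312). *Usp18* was higher in the *L3mbtl2*-KD array of all 4 same-numbered pairs, by 0.19, 0.28, 2.31 and 0.90, and did not pass with replicates paired as a block either (SE 0.39, adjusted p = 0.114, with 0.103 to 0.924 over its alternatives). The difference was 0.23 within slide 1, 1.60 within slide 2 and 0.55 without *L3mbtl2*-KD replicate 3. The ubiquitin ligases *Trim21*, an intracellular antibody receptor, and *Trim25*, which acts on RIG-I, differed by 0.30 (95% interval -0.09 to 0.68) and 0.06 (-0.14 to 0.26).

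*Isg20* encodes an exonuclease that degrades RNA. It measured -2.44, -1.94, -2.47 and -2.70 in control replicates 1 to 4 and -1.46, -1.42, -1.92 and -1.76 in *L3mbtl2*-KD replicates 1 to 4. Every *L3mbtl2*-KD array lay above every control array, although *L3mbtl2*-KD replicate 3 exceeded control replicate 2 only narrowly. The log2 difference was 0.75 (SE 0.18, limma adjusted p = 0.0232), a 1.68-fold higher level. The exact permutation test gave a two-sided p of 0.0286, the smallest that 4 against 4 arrays allow when their pairing is ignored. The difference was 0.75 within either slide. Without control replicates 3 and 4 the adjusted p was 0.0662 and 0.0566, and without *L3mbtl2*-KD replicates 1 and 2 it was 0.057 and 0.0531. Over 19 alternatives the adjusted p of *Isg20* ranged from 0.00533 to 0.254 and was under 0.05 in 12. The other probe of *Isg20* differed by 0.43 with overlapping groups (adjusted p = 0.423, and 0.0473 with replicates paired, the lowest of its alternatives, which reached 0.811).

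The window of *Isg20* is at chr7:78913274-78913423, plus strand, upstream of the start. It held no match to the response element, and capitals mark a match to TTCNNNGAA, the core of the interferon-gamma activated site.
*Isg20*: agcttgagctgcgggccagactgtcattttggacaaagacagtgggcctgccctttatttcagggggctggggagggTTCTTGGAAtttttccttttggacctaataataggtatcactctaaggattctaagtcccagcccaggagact

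**Figure D2:**
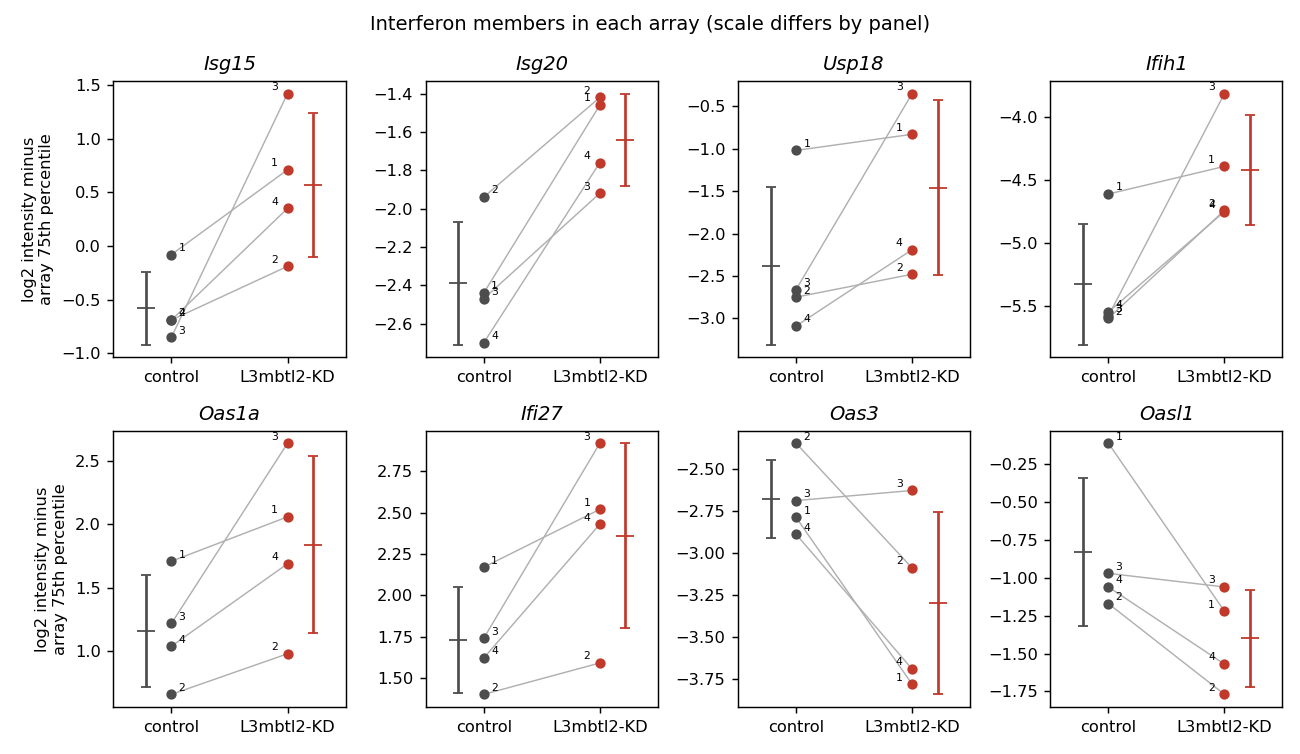
Log2 intensity minus the 75th percentile of the array (y axis, scale differs by panel) in control and *L3mbtl2*-KD ESCs (x axis) for 8 members; points are arrays numbered by replicate, thin lines join equal numbers, and bars beside them give the mean and SD of 4 arrays. *Isg20* is the gene of these 8 whose groups do not overlap, and *L3mbtl2*-KD replicate 3 reaches 1.42 for *Isg15*, 2.64 for *Oas1a* and 2.92 for *Ifi27*.

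The oligoadenylate synthetases, which on binding double-stranded RNA make a messenger that activates a ribonuclease, differed in both directions. *Oas1a* measured 1.71, 0.66, 1.22 and 1.04 in control replicates 1 to 4 and 2.06, 0.98, 2.64 and 1.69 in *L3mbtl2*-KD replicates 1 to 4. *Oas3* measured -2.79, -2.35, -2.69 and -2.89 in control replicates 1 to 4 and -3.78, -3.09, -2.63 and -3.69 in *L3mbtl2*-KD replicates 1 to 4. *L3mbtl2*-KD replicate 3 was the highest of its group for both genes, and the groups overlapped for both.

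The log2 difference was 0.69 for *Oas1a* (limma adjusted p = 0.21) and -0.62 for *Oas3* (limma adjusted p = 0.129). *Oasl1*, a relative that represses translation of *Irf7*, differed by -0.58 (limma adjusted p = 0.148), and by -0.34 without control replicate 1. These 3 genes passed with replicates paired as a block, with adjusted p-values of 0.0492, 0.0492 and 0.0455. Over the alternatives of each, the adjusted p ranged from 0.0492 to 0.815 for *Oas1a*, from 0.0363 to 0.533 for *Oas3* and from 0.0455 to 0.452 for *Oasl1*. Without *L3mbtl2*-KD replicate 3 the difference was 0.42 for *Oas1a* and -0.84 for *Oas3*, which then passed (adjusted p = 0.0363). With normexp *Oas3* differed by -0.28. The other probe of *Oas1a* (0.61) did not pass with replicates paired (adjusted p = 0.072). *Oas2* (0.33, 95% interval -0.62 to 1.28) and *Oasl2* (0.02, -0.43 to 0.46) passed neither with nor without replicates paired. The difference of *Oas2* was 0.64 without control replicate 1 and 0.10 without control replicate 4.

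*Oas1a* and *Oas3* are shown together because their differences had opposite signs while both windows hold the response element. The windows are at chr5:120907526-120907675 and chr5:120777660-120777809, both on the minus strand and upstream of the starts, with matches to the same letters in capitals.
*Oas1a*: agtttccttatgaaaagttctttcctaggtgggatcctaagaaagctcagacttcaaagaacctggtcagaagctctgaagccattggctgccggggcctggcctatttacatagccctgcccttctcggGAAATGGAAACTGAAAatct
*Oas3*: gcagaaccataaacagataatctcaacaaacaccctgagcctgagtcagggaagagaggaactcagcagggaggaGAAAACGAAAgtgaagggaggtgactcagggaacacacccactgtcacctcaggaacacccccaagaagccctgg

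Antiviral effectors were mostly dim or little changed. *Ifit1*, whose protein binds foreign RNA, and *Ifit3* were not well above background on any array, and *Ifit2* was above it on 1 control array. *Bst2*, which tethers budding virus, differed by 0.17 (95% interval -0.20 to 0.55). Without *L3mbtl2*-KD replicate 3 it differed by 0.03. Its difference was 0.00 within slide 1 and 0.34 within slide 2. The GTPases *Gbp2* and *Gbp3* differed by 0.05 (-0.55 to 0.64) and -0.15 (-0.63 to 0.34). *Rsad2* (viperin), an enzyme that makes a chain-terminating nucleotide, differed by -0.41 (limma adjusted p = 0.454). Its difference was 0.00 with normexp. It was -0.15 without control replicate 1, and -0.62 and -0.18 without *L3mbtl2*-KD replicates 3 and 4.

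The window of *Ifit1*, at chr19:34640739-34640888 on the plus strand and upstream of the start, is shown beside those of measured genes because it holds 2 matches to the same element, here in capitals as the reverse complement.
*Ifit1*: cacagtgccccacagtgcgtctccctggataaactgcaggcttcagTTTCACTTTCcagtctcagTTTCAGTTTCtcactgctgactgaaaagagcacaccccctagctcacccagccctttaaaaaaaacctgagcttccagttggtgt

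Among the other induced genes, *Ifi27* measured 2.17, 1.4, 1.74 and 1.62 in control replicates 1 to 4 and 2.52, 1.59, 2.92 and 2.43 in *L3mbtl2*-KD replicates 1 to 4. Control replicate 1 lay among the *L3mbtl2*-KD arrays, and *L3mbtl2*-KD replicate 2 among the controls. The log2 difference was 0.63 (SE 0.28, limma adjusted p = 0.15, and 0.0443 with replicates paired). It was 0.27 within slide 1 and 1.0 within slide 2. Without *L3mbtl2*-KD replicate 2, *Ifi27* differed by 0.89 and passed (adjusted p = 0.0249). The adjusted p of *Ifi27* ranged from 0.0249 to 0.82 over its alternatives. *Ifi35* and the chemokine gene *Cxcl10* both differed by 0.28 (95% intervals -0.06 to 0.62 and -0.14 to 0.69). Without control replicate 1, *Ifi35* differed by 0.42 and passed (limma adjusted p = 0.0344). It differed by 0.01 within slide 1 and 0.55 within slide 2. *Cxcl10* differed by 0.17 without *L3mbtl2*-KD replicate 2 and by 0.40 without *L3mbtl2*-KD replicate 4. *Parp14*, an ADP-ribosyltransferase, differed by -0.10 (-0.75 to 0.55). *Ifi44* was not well above background on any array.

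Arrays with the same replicate number deviated together, and with that number as a block 5 members were higher and 4 lower at an adjusted p under 0.05. The higher members were *Isg15*, *Isg20*, *Oas1a*, *Ifih1* and *Ifi27*, and the lower ones *Oasl1*, *Oas3*, *Mavs* and, by the dimmer of its probes, *Zbp1* (adjusted p = 0.0434, the lowest of its alternatives, which reached 0.63; log2 difference -0.43). These shares, 18.5% and 14.8% of the members, stand beside 23.9% and 26.0% of all genes tested in that fit. *Ifih1* counts among the higher members although its probe was above background on only 2 control arrays. *Isg15* remained the member past 2-fold.

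The members varied more between arrays of a group than other genes did. The median range over the 4 arrays was 0.61 in control ESCs and 0.94 in *L3mbtl2*-KD ESCs for the members, and 0.39 in both groups over all genes. Control replicate 1 was the highest control array for 17 of 27 members (63.0%), compared with 32.2% of all genes. *L3mbtl2*-KD replicate 3 was the highest of its group for 21 members (77.8%), compared with 14.4% of all genes. Replicate 4 was the highest array of its group for 0 members in either group, against 26.4% and 31.8% of all genes. These are descriptions of single arrays, since members of a pathway are not independent of each other.

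The 38 other interferon-stimulated genes that were tested showed the same arrays on top. Control replicate 1 was the highest control for 19 of them (50%) and *L3mbtl2*-KD replicate 3 the highest of its group for 20 (52.6%). The summed feeder markers of control replicate 1 (59.9) were the lowest of the controls, and those of *L3mbtl2*-KD replicate 3 (35.4) were neither the lowest nor the highest of their group. That sum mostly follows *Fn1* and *Vim*, and the part of feeder cells in this pattern was not tested.

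**Figure D3:**
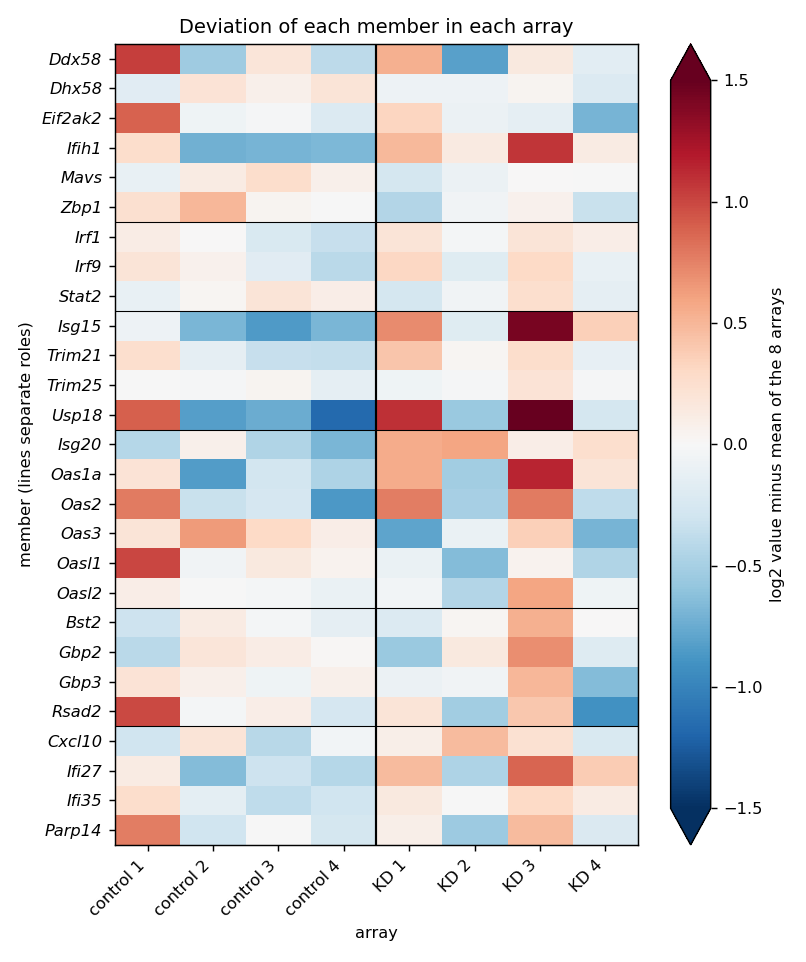
Deviation of each tested member (y axis, grouped by role) from its mean over the 8 arrays (x axis), in log2 units, with control arrays left and *L3mbtl2*-KD arrays right of the black line. Control replicate 1 and *L3mbtl2*-KD replicate 3 are mostly red, and *Usp18* has the widest range.

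**Figure D4:**
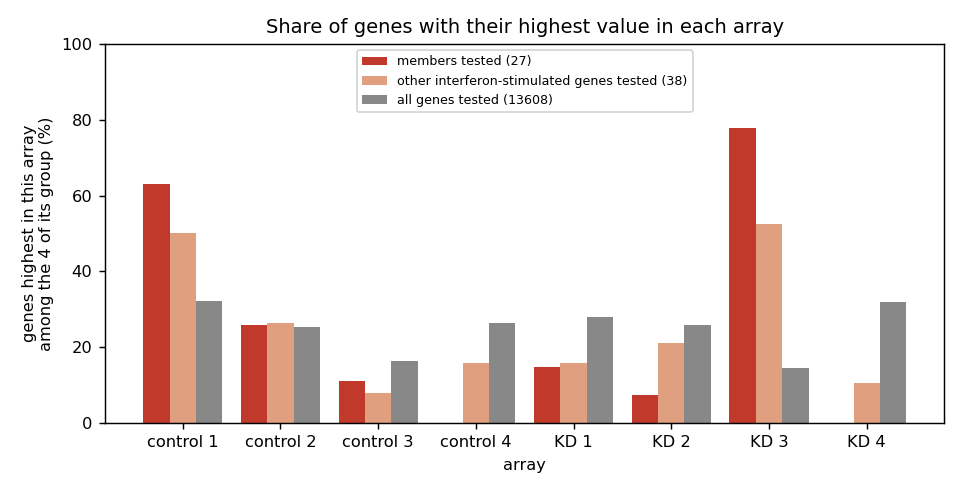
Share of genes (y axis, percent) whose highest value within their group of 4 arrays falls in each array (x axis), for 27 members, 38 other interferon-stimulated genes and all 13608 genes with a value on every array. *L3mbtl2*-KD replicate 3 holds the highest value for 77.8% of members and 14.4% of all genes.

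The differences within same-numbered pairs followed these arrays. The median over the members of *L3mbtl2*-KD minus control was -0.06, -0.08, 0.56 and 0.12 in pairs 1 to 4, while the median over all genes was -0.02, -0.01, -0.01 and 0.02. In pair 3, 22 of 27 members were higher in the *L3mbtl2*-KD array, and in pair 2 it was 10. The median of the members was -0.091 within slide 1 and 0.258 within slide 2, so its direction differed between the slides.

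The response element was frequent before and around the starts of the members. The RefSeq table held a window for 27 members, from 250 bases before to 50 bases after the start, and none for *Oas2*, *Mx1*, *Mx2*, *Dhx58*, *Usp18*, *Ifi27*, *Zbp1* and *Parp14*. GAAA, any 2 bases and GAAA, searched on both strands, occurred in 15 of the 27 windows (55.6%) and in 3.99% of the windows of 27025 genes. TTCNNNGAA, which is its own reverse complement, occurred in 7 (25.9%) and in 9.55%. The E-box CACGTG, to which MAX-containing dimers bind, occurred in 1, that of *Trim25* (3.7%), and in 8.09%. In *Bst2* the first 2 motifs overlapped each other. Of 13 tested members with the response element, 7 had log2 differences above 0 and 6 below 0. A match describes the letters only, and binding was not measured on these arrays.

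**Figure D5:**
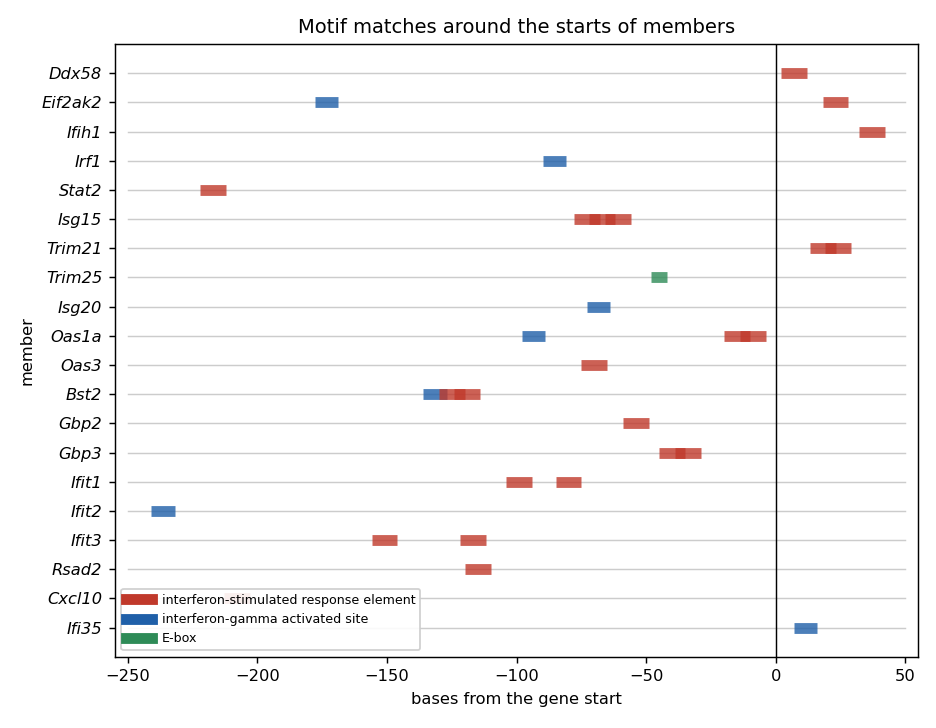
Positions of motif matches in bases from the gene start (x axis) for members with a match (y axis), with grey lines for the windows searched. The 3 matches to the response element in *Isg15* lie between 78 and 57 bases before the start.

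Of the interferon genes, 14 had a probe and 5 were tested. *Ifnab* (log2 difference -0.53, SE 0.13, limma adjusted p = 0.0262) and *Ifna5* (-0.27, SE 0.079, limma adjusted p = 0.0458) were lower, both from dim probes whose differences were -0.08 and -0.03 with normexp. They are 40.0% of the 5 genes, beside 11.7% of all genes. *Ifnb1*, encoding the interferon that the RNA sensors induce, was not well above background on any array.

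Of 9 tested genes for receptors and the JAK-STAT pathway, 1 was higher and 2 were lower at an adjusted p under 0.05 (11.1% and 22.2%, against 10.3% and 11.7% of all genes), and none was called. *Ifnlr1*, a subunit of the type III receptor, fell (-0.63, SE 0.15, limma adjusted p = 0.0197), as did *Ifnar2*, a subunit of the type I receptor (-0.43, SE 0.13, limma adjusted p = 0.0475). The other subunit, *Ifnar1*, passed by 1 of its 3 probes (0.45, limma adjusted p = 0.0104), and its brightest probe gave 0.12 (limma adjusted p = 0.498). Of 8 negative regulators tested, 1 was lower at an adjusted p under 0.05 (12.5%, beside 11.7% of all genes). This gene, *Ptpn2*, a phosphatase of Janus kinases, was lower by a dim probe (-0.68, limma adjusted p = 0.0178). With normexp that probe gave -0.23. The brighter probes of *Ptpn2* both differed by -0.10 (limma adjusted p = 0.522 and 0.415). With replicates paired, 3 receptor and JAK-STAT genes were higher and 3 lower (33.3% each, against 23.9% and 26.0% of all genes), and 1 negative regulator was higher and 3 were lower (12.5% and 37.5%).

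Of 18 other sensors and signalling genes tested, *Aim2*, a sensor of cytosolic DNA, was lower at an adjusted p under 0.05 (5.56% of the list, beside 11.7% of all genes). It measured -3.53, -3.76, -3.59 and -3.97 in control replicates 1 to 4 and -4.42, -4.61, -4.68 and -5.05 in *L3mbtl2*-KD replicates 1 to 4. The groups did not overlap. Its log2 difference was -0.98 (SE 0.15, limma adjusted p = 0.00428), and -0.34 with normexp. With replicates paired, 7 genes of this list were higher and 4 lower (38.9% and 22.2%, beside 23.9% and 26.0% of all genes).

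Of 12 tested genes that edit, process or degrade double-stranded RNA, *Adarb1*, an adenosine deaminase, was higher (0.46, SE 0.13, limma adjusted p = 0.0389) and *Ago2*, which cleaves RNA guided by small RNAs, was lower (-0.43, SE 0.11, limma adjusted p = 0.0319). No overlap of groups was seen for either. These are 8.33% of the list each way, beside 10.3% and 11.7% of all genes. With replicates paired, 4 were higher and 1 lower (33.3% and 8.33%, beside 23.9% and 26.0%). None of the 4 tested genes of the interferon-induced transmembrane family passed, and with replicates paired 2 were lower, *Ifitm1* and *Ifitm2* (50% of the list, beside 26.0% of all genes).

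Of the 38 other interferon-stimulated genes tested, 1 was called higher and 1 lower (2.63% each, beside 2.49% and 3.21% of all genes). At an adjusted p under 0.05 with any fold, 3 were higher and 4 lower (7.89% and 10.5%, beside 10.3% and 11.7%). With replicates paired, 4 were higher and 11 lower (10.5% and 28.9%, against 23.9% and 26.0% of all genes). *Nmi*, whose protein binds STAT factors, measured -0.87, -1.13, -1.22 and -1.12 in control replicates 1 to 4 and -0.20, -0.37, 0.33 and -0.10 in *L3mbtl2*-KD replicates 1 to 4. The groups did not overlap. Its log2 difference was 1.0 (SE 0.16, limma adjusted p = 0.0041), just past 2-fold, and 0.88 with normexp. The chemokine gene *Ccl5* measured -3.36, -3.51, -4.49 and -3.09 in control replicates 1 to 4 and -5.00, -4.41, -4.80 and -5.62 in *L3mbtl2*-KD replicates 1 to 4, of which 3 were above background. Control replicate 3 lay below *L3mbtl2*-KD replicate 2. Its probe entered the test through the control arrays alone. The log2 difference of *Ccl5*, which includes the *L3mbtl2*-KD reading that was not above background, was -1.35 (SE 0.34, limma adjusted p = 0.0273) and -0.44 with normexp.

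The others that passed were *Tdrd7* (0.61, limma adjusted p = 0.0166) and the histone chaperone gene *Daxx* (0.48, limma adjusted p = 0.0294), which were higher, and *Trim34a* (-0.86, limma adjusted p = 0.0355), *Tor3a* (-0.81, limma adjusted p = 0.0283) and, by 1 probe, *Slfn9* (-0.84, limma adjusted p = 0.0118), which were lower. The median log2 difference of this list was -0.109. Within pairs 1 to 4 it was -0.23, -0.18, 0.15 and -0.13, so its direction differed between pairs. *Ccl5*, *Cmpk2*, *Gbp4*, *Gbp7*, *Ifi47* and *Uba7* entered this median through the control arrays alone, and all but *Uba7* were lower. The median is therefore not set against that of the members.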

How the data were processed

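The authors deposited, for each one-colour array, the background-subtracted intensity of every spot from Feature Extraction 10.7.3.1, and a table of log2 values that was used as an alternative. From these, log2 intensities were shifted here so that the 75th percentile of every array was 0. Control spots and outlier spots were removed, and spots of a probe were averaged. Probes were named through RefSeq accessions (GRCm38.p6). The 23525 probes that passed the filter were tested with lmFit and eBayes from limma 3.58.1 under R 4.3.3, and p-values were adjusted over all of them by Benjamini-Hochberg. Where 1 probe stands for a gene, it has the highest mean signal. Between 59.5 and 66.6% of spots were well above background, and the number of arrays limits the precision. Deviations from group means correlated by 0.38 to 0.58 between equal replicate numbers and by -0.44 to 0.25 between others, so the numbers pair the arrays. The exact permutation tests ran over all 70 assignments of the 8 arrays to groups and did not keep this pairing. Full values were given for members that were called, had an adjusted p under 0.05 or had groups without overlap, and for *Ifih1*, *Usp18*, *Oas1a*, *Oas3* and *Ifi27*, chosen after their values were seen. From other lists, genes called and up to 5 more at an adjusted p under 0.05 were named. Normexp (offset 50) used median spot intensities. Members and lists were chosen with earlier results of these data known. The limma test was checked on simulated data. Protein sequences were not used here, and 1 marker gene is not reported here.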

Additional observations from a re-analysis of the deposited data

Results flagged for a closer look

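In groups of 4 arrays, the gap between an extreme array and its nearest neighbour was set against the range of the group for the 27 tested members. Control replicate 1 stood far from the other controls for *Ifih1* (gap over range 0.955; -4.61, while the others averaged -5.58, with only 2 of the 4 control readings above background) and for *Eif2ak2* (0.834; -1.54, while the others averaged -2.53). Of 54 groups examined, 2 passed the limit, and chance alone passes about 1 in 20, or 2.7 groups.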

How the results depend on the processing

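The precision is limited by 4 arrays a group, dim probes and overlapping groups. Over 50 single probes, 946 results under alternatives comprised 773 with the same direction and side of the threshold, 140 that lost and 16 that gained it, and 17 that turned. Members called higher numbered 2 with quantile normalization (*Ifih1* and *Isg15*), beside 387 of all genes. They numbered 2 past 1.5-fold (700 of all genes) and 2 by adjusted p alone (1406 of all genes). Without a filter they numbered 0 (354 of all genes), and by the adjusted one-way test 0 (289 of all genes). With an array left out they numbered 0 to 2, beside 298 to 371 of all genes. Members higher at an adjusted p under 0.05 numbered 0 without a filter, 5 with the replicate block and 0 to 4 with an array left out. By the one-way test, 0 were higher at an adjusted p and 3 at an unadjusted p. Lower members numbered 4 with the block, 1 by the unadjusted one-way test and 0 to 1 with an array left out. Among these alternatives, counts over all genes at any fold are given for the block alone. The other member counts at any fold are therefore not compared with all genes. Over all genes at any fold, the block gave 3259 higher and 3546 lower in place of 1406 and 1603. It left counts past 2-fold within 1.5 times and changed no call past 2-fold among the members. Over all genes, normexp called 194 higher and 159 lower, the filter on all arrays 290 lower, 1.5-fold 700 and 1014, and adjusted p alone 1406 and 1603. The median of the members was 0.258 within slide 2, an alternative chosen after seeing the data. Within slide 1, *Irf9* (-0.06), *Oasl2* (-0.29), *Oas2* (-0.09), *Gbp2* (-0.09) and *Trim25* (-0.02) turned, and within slide 2, *Ddx58* (0.10) and *Parp14* (0.26), as did *Rsad2* with normexp (0.00). With an array left out, *Oasl2* ran from -0.17 to 0.17, *Ddx58* from -0.35 to 0.17, *Gbp2* from -0.18 to 0.24, *Gbp3* from -0.34 to 0.05 and *Parp14* from -0.28 to 0.14. The causes were not tested.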
